A study of Homo sapiens with 12 samples.

Results

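The genes described here are 8 transcription factor genes known from adipocyte differentiation: the C/EBP genes *CEBPA*, *CEBPB*, *CEBPD* and *CEBPG*, the Krüppel-like factor genes *KLF4*, *KLF5* and *KLF15*, and the early B-cell factor gene *EBF1*. They were taken by name and looked up by NCBI gene number in a table of raw counts, and make up 8 of the 23705 genes counted. All 8 passed the filter on low counts, which left 13522 genes for testing. RNA-seq was performed on A375, an established human metastatic melanoma cell line that expresses the nuclear receptor PPARγ. Cells were exposed for 24 h to the DMSO vehicle, to 5 μM of the PPARγ agonist Rosiglitazone (RGZ), to the PPARγ antagonist T0070907 at 2 μM, or to both compounds at these doses (the combination), with both compounds dissolved in DMSO. Each condition was sampled in 3 independent experiments, and technical replicates of an experiment were pooled as RNA, so that n = 3 libraries per condition. The libraries are numbered 1 to 3 within each condition, and this number was taken as that of the experiment, although the titles carry 1 shared experiment code and do not say so. All libraries came from this single line, and 1 dose and 1 time were measured for each compound. The question put to these genes was whether the agonist changed their RNA levels and whether the antagonist removed that change.

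The 12 libraries held between 8319455 and 11375227 counts. At these depths 3 counts, taken as the detection floor, corresponded to levels of 0.258 to 0.371 CPM (read counts scaled to the TMM-corrected library total). The labelled cell type was checked against marker genes. The neural crest factor *SOX10* averaged 309 CPM over the 12 libraries and *MITF*, the melanocyte master regulator, 43.8 CPM, while the pigment genes *TYR*, *DCT* and *MLANA* had at most 0, 1 and 6 counts in any library. The adipocyte hormone gene *ADIPOQ* was at 0 in all libraries, *LEP* had at most 1 count and *PLIN1* at most 3. The adipocyte markers *CIDEC* and *CFD* were detected, with 0 to 31 and 6 to 20 counts. The leukocyte marker *PTPRC* had at most 2 counts in any library, whereas the keratin gene *KRT10* was expressed at 79.1 CPM. Libraries of the same experiment deviated together, and a fit with the experiment as replicate block is therefore given beside the fit without it wherever a call differed. Leaving out combination replicate 2 or vehicle replicate 2 changed the blocked comparison of these conditions across all genes from 0 calls to 2594 and 873 calls. The calls of the 8 genes that changed without either library are given beside the results.

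C/EBP proteins are basic leucine zipper factors that bind DNA as dimers. In preadipocytes C/EBPβ and C/EBPδ appear early after a differentiation stimulus and induce C/EBPα and PPARγ, which then maintain each other's expression and switch on the genes of the fat cell. Krüppel-like factors bind GC-rich elements through zinc fingers and act at several steps of the same programme: KLF4 acts upstream of C/EBPβ, KLF5 follows C/EBPβ and acts on the *PPARG* promoter, and KLF15 acts late.

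The promoters of the members that changed most, *KLF4*, *KLF15* and *CEBPA*, are shown because KLF proteins bind GC-rich elements of the kind searched for here. The sequences come from RefSeq (GRCh38.p14) and end at or before the annotated start, and bases covered by an exon of the gene in GENCODE 29 were left out. Capitals mark matches to the KLF motif CCNCNCCC on either strand, where N is any base and overlapping matches are merged. The *KLF4* window (chr9:107489770-107490019, minus strand) lay in an intron of a longer *KLF4* transcript. The windows of *KLF15* (chr3:126357443-126357658, minus strand) and *CEBPA* (chr19:33302565-33302784, minus strand) lay upstream of the first exon.

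KLF4: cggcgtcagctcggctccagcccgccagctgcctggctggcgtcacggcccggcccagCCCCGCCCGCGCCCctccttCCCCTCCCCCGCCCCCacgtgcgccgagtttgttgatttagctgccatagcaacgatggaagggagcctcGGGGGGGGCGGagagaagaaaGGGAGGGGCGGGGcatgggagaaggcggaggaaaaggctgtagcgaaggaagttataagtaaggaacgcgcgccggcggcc

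KLF15: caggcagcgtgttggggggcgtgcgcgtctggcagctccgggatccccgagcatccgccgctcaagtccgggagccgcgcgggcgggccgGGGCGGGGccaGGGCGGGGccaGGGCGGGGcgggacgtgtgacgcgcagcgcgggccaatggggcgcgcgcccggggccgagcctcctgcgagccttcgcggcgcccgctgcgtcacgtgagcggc

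CEBPA: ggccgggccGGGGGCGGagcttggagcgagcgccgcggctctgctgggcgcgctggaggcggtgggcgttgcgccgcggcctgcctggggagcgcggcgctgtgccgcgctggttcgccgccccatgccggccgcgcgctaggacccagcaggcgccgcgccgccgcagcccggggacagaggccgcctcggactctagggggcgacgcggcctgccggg

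The *KLF4* window held 10 places that match the motif, starting between positions -192 and -76 relative to the start, and 0.948% of the 35116 promoters held as many. Many of these places overlap, and they form 4 runs of capitals. Over 250 bases the GC content was 69.2% for *KLF4*, 80.4% for *KLF15* and 81.2% for *CEBPA*, against a median of 58.0% over all promoters. The part of GC content in the number of matches was not tested. Of all promoters of this length (250 bases), 53.4% held at least 1 match. *KLF15* had 3 places in a repeated block, a number reached by 21.4% of promoters, and *CEBPA* had 1. The C/EBP motif TTGCNNAA, found in 9.05% of all promoters, and the nuclear receptor core element AGGTCA, found in 12.1%, were in none of the windows of the 7 members searched. The EBF motif CCCNNGGG, which reads alike on both strands, was in 17.1% of all promoters and, among the members, in 1 of the *CEBPB* windows. These matches describe letters in a sequence and were not compared with binding data.

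In vehicle-treated cells the members spanned a wide range of RNA levels. Per kilobase of the longest transcript, *KLF5* was highest at 26.0 ± 2.01 CPM per kb (SD, n = 3), followed by *CEBPB* at 20.8 ± 3.25, and the libraries of these neighbours overlapped. *CEBPG*, which encodes a C/EBP that dimerises with other leucine zipper factors, came next at 13.0 ± 1.86, followed by *KLF4* at 6.21 ± 0.317, each without overlap with the gene below it. *CEBPD* at 1.96 ± 0.992 and *KLF15* at 1.70 ± 0.322 CPM per kb overlapped, and the lowest *CEBPD* library was also within the range of *CEBPA*. *CEBPA* at 0.919 ± 0.184 and *EBF1* at 0.162 ± 0.0863 were lowest. Among the 13301 tested genes with a transcript length, 78.5% were at or below *KLF5*, 73.8% at or below *CEBPB*, 44.5% at or below *KLF4*, 12.8% at or below *CEBPA* and 0.865% at or below *EBF1*. *CEBPB* therefore ranked above most tested genes and *CEBPA* below most of them.

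RGZ raised *KLF4*, *CEBPA*, *CEBPB* and *KLF5* and lowered *KLF15* once the experiment was taken into account, and left *CEBPD*, *CEBPG* and *EBF1* without a call. With edgeR's quasi-likelihood test and Benjamini-Hochberg adjustment, 2 of 8 members were called at an adjusted p under 0.05 without the block (*KLF4* higher, *KLF15* lower), against 1.24% of all tested genes. With the replicate block 5 of 8 were called, 4 higher and 1 lower, against 9.30% of all tested genes. In 4 of 8 members the 3 RGZ libraries did not overlap the 3 vehicle libraries (*KLF4*, *KLF5*, *KLF15* and *CEBPA*), as was the case for 16.8% of all tested genes. The median absolute log2 fold change was 0.57 over the 8 members and 0.12 over all tested genes.

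**Figure D1:**
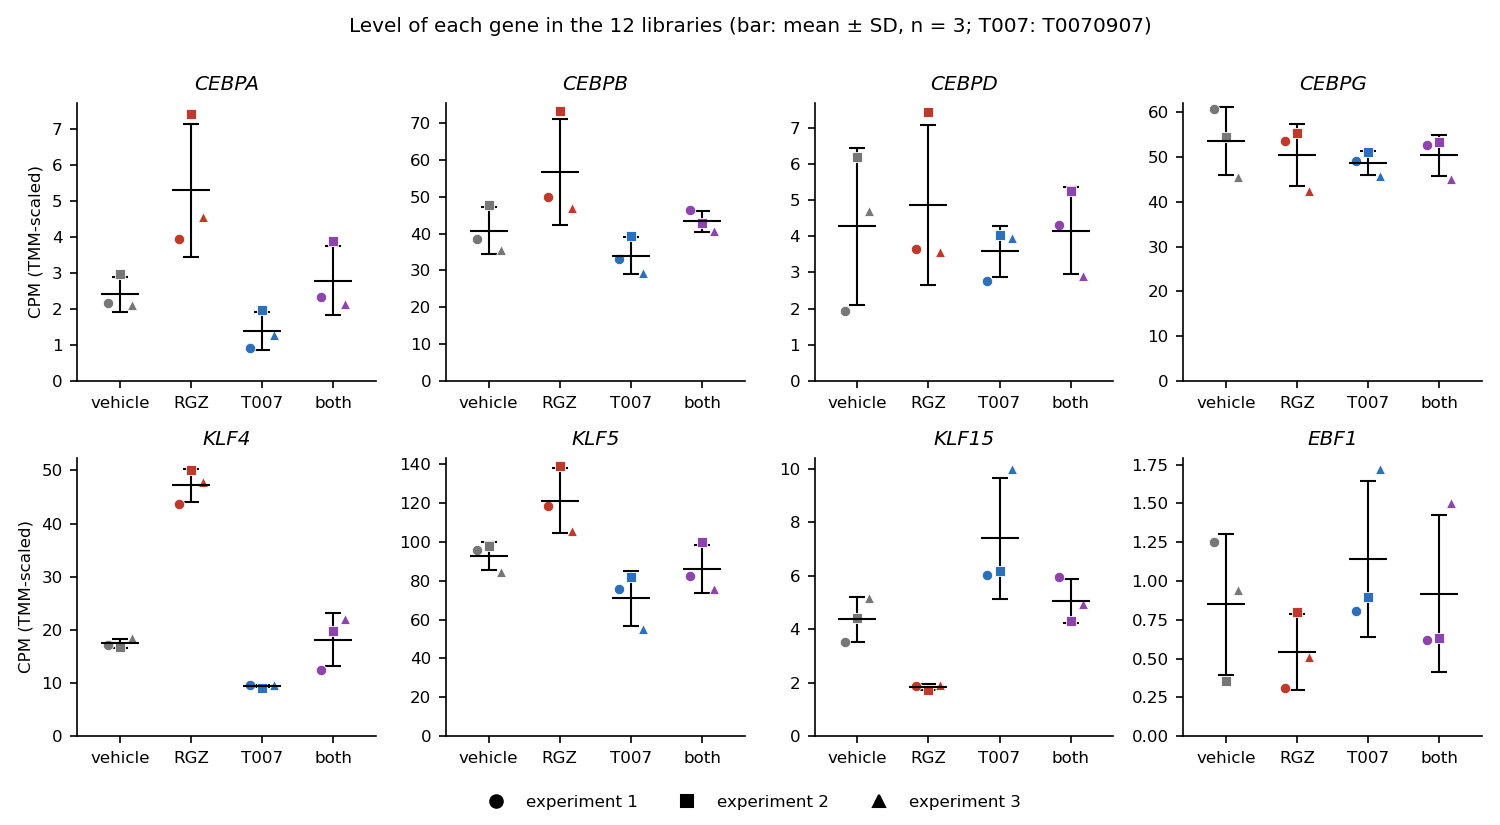
RNA level of each of the 8 genes in the 12 libraries, in TMM-scaled CPM on a linear axis from 0, by condition (vehicle, RGZ, T0070907 and both). Points are libraries, marker shapes the 3 experiments, and horizontal lines with error bars the mean ± SD. *KLF4* stood between 43.8 and 50.01 CPM with RGZ and at most 22.1 CPM elsewhere, whereas *KLF15* was at most 1.93 CPM with RGZ and at least 3.52 CPM elsewhere.

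*KLF4* (NCBI gene 9314, chr9:107484852-107490482, minus strand, GRCh38) encodes a zinc finger factor known from pluripotency and epidermal differentiation. Its level was 17.1, 16.8 and 18.5 CPM in vehicle experiments 1 to 3 and 43.8, 50.01 and 47.8 CPM with RGZ. Every RGZ library was above every other library. The log2 fold change was 1.43 ± 0.16 (SE), 2.70-fold, and the adjusted p was 0.00122 (1.84e-07 with the block). Within experiments the RGZ to vehicle ratio was 2.55, 2.98 and 2.59. Of the 8 members *KLF4* had the largest change and the one least dependent on the fit: it was called in all 21 alternative fits, with adjusted p between 9.25e-13 and 0.0143.

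*KLF15* (NCBI gene 28999, chr3:126342635-126357442, minus strand) encodes a late adipogenic factor that also acts on glucose transport and amino acid metabolism genes. It moved the other way: 3.52, 4.40 and 5.18 CPM with vehicle and 1.87, 1.71 and 1.93 CPM with RGZ, from raw counts of 31 to 44 and of 15 to 19. The groups did not overlap, and the 3 RGZ libraries were the lowest of the 12. The log2 fold change was -1.24 ± 0.26, 2.36-fold lower, and the adjusted p was 0.0427 (0.00300 with the block). The unblocked call held in 7 of 21 alternatives, which include the fit with the block. It held in 1 of the 12 that left out a library, with adjusted p up to 0.187 (0.106 without vehicle replicate 2 and 0.0517 without combination replicate 2). With the block it held in all 15 alternatives.

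The C/EBP genes that rose did so by smaller steps. *CEBPA* (NCBI gene 1050, chr19:33299934-33302564, minus strand, a gene of 1 exon), whose product partners PPARγ in the mature fat cell, was at 2.16, 2.97 and 2.12 CPM with vehicle and at 3.95, 7.42 and 4.57 CPM with RGZ. All RGZ libraries were above all vehicle libraries, on raw counts of 38 to 65 against 18 to 25. The log2 fold change was 1.13 ± 0.34, 2.19-fold. It was not called without the block (adjusted p = 0.182) and was called with it (adjusted p = 0.000713). Within experiments the ratio was 1.83, 2.49 and 2.16. In GENCODE 29 antisense genes cover parts of the *CEBPA* exon, 25.0% and 18.3% of its bases, and since the strand setting of the counting was not given in the sources used here, reads from the 2 strands cannot be told apart.

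*CEBPB* (NCBI gene 1051, chr20:50190734-50192689, plus strand), an early factor of the adipogenic cascade, was at 38.6, 47.8 and 35.7 CPM with vehicle and at 49.9, 73.3 and 47.0 CPM with RGZ. The RGZ library of experiment 3 was below the vehicle library of experiment 2, so the groups overlapped, although RGZ was higher in 3 of 3 experiments. The log2 fold change was 0.48 ± 0.17, 1.39-fold, and the adjusted p was 0.301 (0.00378 with the block). Without RGZ replicate 2 the blocked log2 fold change was 0.33 and the call was lost (adjusted p = 0.0588). An antisense gene covers 11.8% of the *CEBPB* exon bases.

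*KLF5* (NCBI gene 688, chr13:73054976-73077542, plus strand), a factor of proliferating epithelial and mesenchymal progenitor cells, was at 95.6, 97.7 and 84.4 CPM with vehicle and at 119, 139 and 106 CPM with RGZ. Each RGZ library was above all vehicle libraries. The log2 fold change was 0.39 ± 0.15, 1.31-fold, and the adjusted p was 0.363 (0.00144 with the block). Ratios within experiments were 1.24, 1.42 and 1.25. With the block *KLF4*, *KLF5*, *KLF15* and *CEBPA* were called in all 15 alternatives and *CEBPB* in 14 of 15.

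The other members were not called. *CEBPG* (NCBI gene 1054, chr19:33373330-33382686, plus strand) ranged from 45.5 to 60.7 CPM with vehicle and from 42.4 to 55.3 CPM with RGZ, and the approximate 95% interval of its blocked log2 fold change was -0.27 to 0.09. *EBF1* (NCBI gene 1879, chr5:158695916-159099761, minus strand), which encodes a factor of B-cell and adipocyte commitment, had 3 to 11 counts with vehicle and 3 to 7 with RGZ. Its lowest libraries were at the detection floor, and its blocked log2 fold change was -0.69 with an approximate 95% interval of -1.95 to 0.58.

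*CEBPD* (NCBI gene 1052, chromosome 8, 47736909 to 47739086, minus strand), the early partner of *CEBPB*, varied more between experiments than between conditions. It was at 1.93, 6.19 and 4.71 CPM with vehicle and 3.64, 7.42 and 3.55 CPM with RGZ. RGZ was higher in 2 of 3 experiments, and the sign of the change turned when vehicle replicate 1 or RGZ replicate 2 was left out (log2 fold changes of -0.17 and -0.24 without the block). The interval of the blocked log2 fold change was -0.43 to 0.80. Over all 6 contrasts *CEBPD*, *CEBPG* and *EBF1* gave no call in either fit, and their smallest unadjusted p without the block was 0.571, 0.279 and 0.207.

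T0070907 alone lowered *KLF4* and *KLF5* once the experiment was taken into account, and *KLF15*, *CEBPA* and *CEBPB* were not called. *KLF4* was at 9.59, 9.13 and 9.56 CPM, below every other library, and *KLF5* at 75.8, 82.0 and 55.0 CPM, below all vehicle libraries. *KLF15* was at 6.01, 6.18 and 9.99 CPM, above all vehicle libraries, with its highest value in experiment 3. *CEBPA* was at 0.924, 1.97 and 1.29 CPM, on 8 to 22 counts, also without overlap with vehicle. In 4 of 8 members the groups did not overlap, against 7.67% of all tested genes.

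Without the block 0 of 8 members were called for T0070907 by edgeR's quasi-likelihood test, against 0.00740% of all tested genes. In that fit 3 of 8 had an unadjusted p under 0.05, against 419 of the 13522 tested genes. DESeq2 called 1 member (*KLF4*) among 21 genes in all, and limma-voom 0 members and 0 genes in all. With the replicate block 2 of 8 were called, against 0.910%. The blocked log2 fold change of *KLF4* was -0.90 ± 0.14 (adjusted p = 0.00265, 0.276 without the block) and that of *KLF5* was -0.40 ± 0.07 (adjusted p = 0.00976, 1.00 without the block). Both calls were lost without T0070907 replicate 3 (adjusted p = 0.0592 and 0.159), and that of *KLF5* also without vehicle replicate 1 or 3 (0.0846 and 0.122). *KLF15* had a blocked log2 fold change of 0.77 ± 0.19 (adjusted p = 0.0647, and 0.0369 without combination replicate 2), *CEBPA* of -0.78 ± 0.25 (adjusted p = 0.213) and *CEBPB* of -0.26 ± 0.10 (adjusted p = 0.367). Under the blocked alternatives *KLF15* was called in 3 of 15 (lowest adjusted p = 0.00164), *CEBPB* in 1 (0.0412) and *CEBPA* in 0. Each of these 3 genes kept 1 direction in 3 of 3 experiments.

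With both compounds the members stood near their vehicle level. *KLF4* was at 12.5, 19.9 and 22.1 CPM, *KLF15* at 5.93, 4.31 and 4.93 CPM and *KLF5* at 82.5, 100.02 and 75.9 CPM. *CEBPA* was at 2.35, 3.89 and 2.14 CPM and *CEBPB* at 46.4, 42.8 and 40.6 CPM. For all 8 members the combination libraries overlapped the vehicle libraries, whereas 12.2% of all tested genes did not overlap. Log2 fold changes against vehicle lay between -0.10 (*KLF5*) and 0.21 (*CEBPA*).

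Against vehicle 0 of 8 members were called without the block (0% of all tested genes) and 0 with it (0%), by edgeR's quasi-likelihood test. DESeq2 and limma-voom called 0 members and 0 genes in all. In the edgeR fits 0 members had an unadjusted p under 0.05, against 1438 of the 13522 tested genes without and 2868 with the block. The lowest adjusted p was 0.794 without and 0.402 with the block. The approximate 95% interval of the blocked log2 fold change was -0.26 to 0.37 for *KLF4*, -0.30 to 0.71 for *KLF15*, -0.34 to 0.74 for *CEBPA*, -0.15 to 0.34 for *CEBPB* and -0.29 to 0.07 for *KLF5*, so the combination and vehicle were not shown to be equal. Without combination replicate 2 the blocked fit called 1 member, *CEBPB* (log2 fold change 0.26, adjusted p = 0.0472), in a fit that called 2594 genes in all. Without vehicle replicate 2 it called 0 members among 873 genes, with log2 fold changes of -0.00694 for *KLF4*, 0.32 for *KLF15*, 0.06 for *CEBPA*, 0.11 for *CEBPB* and -0.18 for *KLF5*. *KLF4* did not behave alike in all experiments: its ratio to vehicle was 0.728, 1.18 and 1.19.

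**Figure D2:**
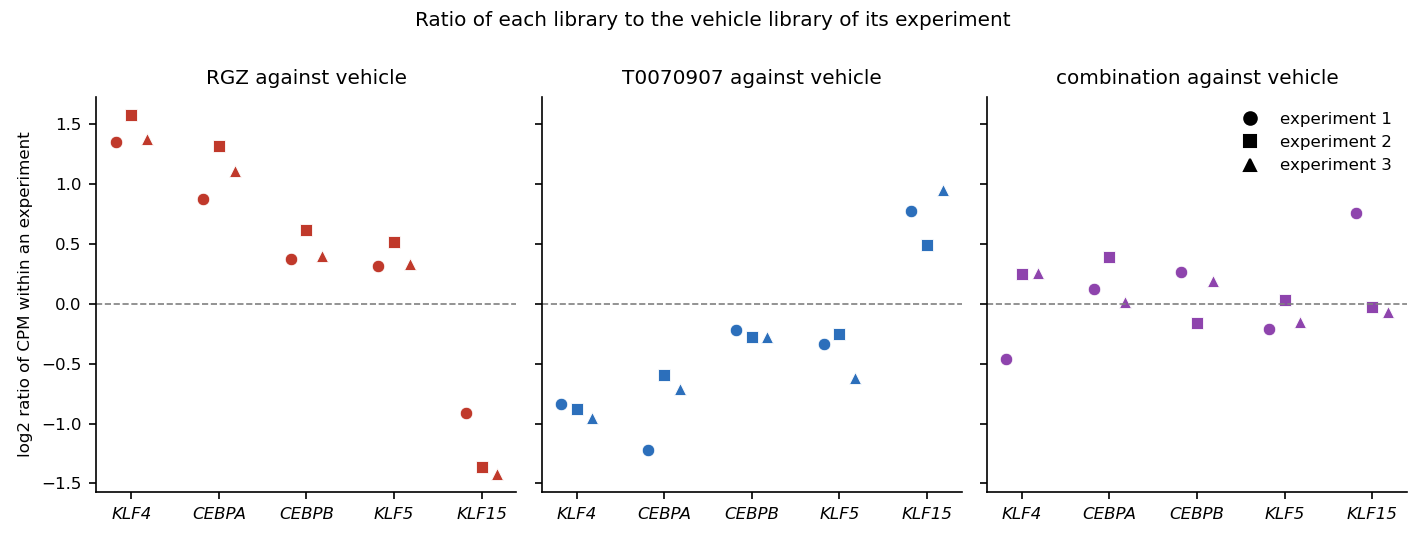
Log2 ratio of CPM of each treated library to the vehicle library of its experiment for the 5 genes called with RGZ in the fit with the replicate block. Panels are RGZ, T0070907 and the combination, marker shapes the 3 experiments, and the dashed line is no change. All 3 points of a gene lie on 1 side with RGZ and on the other with T0070907, and the combination gave points on both sides of 0 for *KLF4*, *CEBPB*, *KLF5* and *KLF15*.

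Compared with RGZ alone, the combination lowered *KLF4*, *CEBPA*, *CEBPB* and *KLF5* and raised *KLF15* in the fit with the block. Without the block 2 of 8 members were called by edgeR's quasi-likelihood test, against 1.24% of all tested genes: *KLF4* with a log2 fold change of -1.37 ± 0.16 (adjusted p = 0.00222) and *KLF15* with 1.45 ± 0.26 (adjusted p = 0.0184). The unblocked *KLF15* call held in 14 of 21 alternatives, which include the fit with the block. It was lost without RGZ replicate 1, 2 or 3 (adjusted p = 0.0703, 0.0821 and 0.0731) and without combination replicate 1 (0.0938). It was also lost with limma-voom (0.0511), with only the compared groups in the fit (0.0518) and at a threshold of 0.01. With the replicate block 5 of 8 were called, against 11.4%. In 5 of 8 members the libraries of the 2 conditions did not overlap, against 17.7% of all tested genes. The blocked log2 fold change was -0.49 ± 0.07 for *KLF5* (adjusted p = 0.000146), -0.92 ± 0.18 for *CEBPA* (0.00267) and -0.37 ± 0.10 for *CEBPB* (0.0174). The *CEBPB* call was lost without RGZ replicate 2 (log2 fold change -0.24, adjusted p = 0.149) and without combination replicate 2 (-0.21, 0.0843), and with only the compared groups in the fit (0.105). Set side by side, the changes of *KLF4* against vehicle were 1.43 with RGZ and 0.06 with the combination on the log2 scale, those of *KLF15* -1.24 and 0.21, those of *CEBPA* 1.13 and 0.21, those of *CEBPB* 0.48 and 0.09, and those of *KLF5* 0.39 and -0.10. These comparisons share the vehicle libraries, and the comparison of the combination with RGZ shares the RGZ libraries.

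**Figure D3:**
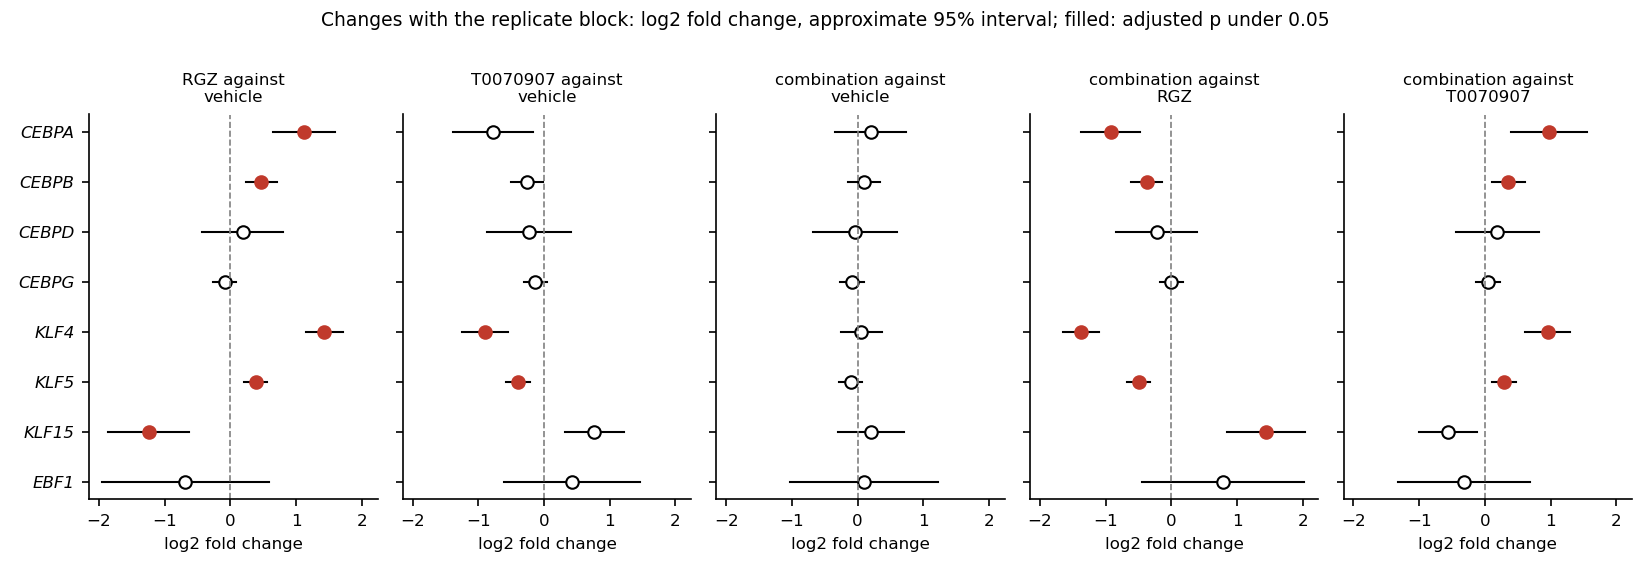
Log2 fold change of each of the 8 genes in the 5 pairwise comparisons, from the fit with the replicate block. Points are estimates, lines approximate 95% intervals, and filled points are genes with an adjusted p under 0.05. For RGZ against vehicle 5 genes are filled, for the combination against RGZ 5, and for the combination against vehicle 0.

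With the antagonist present RGZ still changed some of these genes. Against T0070907 alone, the combination was higher for *KLF4*, *CEBPA*, *CEBPB* and *KLF5* in the fit with the block. Without the block 0 of 8 members were called by edgeR's quasi-likelihood test (against 0.0370% of all tested genes). In that fit 3 of 8 had an unadjusted p under 0.05, against 2028 of the 13522 tested genes. DESeq2 and limma-voom called 0 members, among 83 and 5 genes in all. With the replicate block 4 of 8 were called, against 8.76%. In 4 of 8 members the libraries did not overlap (*KLF4*, *KLF15*, *CEBPA* and *CEBPB*), against 18.7%. The blocked log2 fold change was 0.96 ± 0.14 for *KLF4* (adjusted p = 0.000608), 0.98 ± 0.24 for *CEBPA* (0.0211), 0.36 ± 0.10 for *CEBPB* (0.0380) and 0.29 ± 0.07 for *KLF5* (0.0257). *KLF15* was not called, at -0.56 ± 0.18 (0.0570). Under the blocked alternatives *KLF4* was called in 15 of 15, *KLF5* in 11, *CEBPA* in 10 and *CEBPB* in 7. *CEBPA* was lost without T0070907 replicate 1 or 2 or combination replicate 1 or 3, *KLF5* without T0070907 replicate 2 or 3 or combination replicate 3, and *CEBPB* without any T0070907 replicate, vehicle replicate 3, RGZ replicate 3 or combination replicate 1 or 3.

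Whether the effect of RGZ differed with and without the antagonist was tested as an interaction. It was called for 0 of 8 members without the block (0% of all tested genes) and 0 with it (0.281%), by edgeR's quasi-likelihood test. DESeq2 and limma-voom called 0 members, among 1 and 0 genes in all. Without the block 0 members had an unadjusted p under 0.05, against 406 of the 13522 tested genes. With it 2 members did, against 1324 genes. These members were *KLF4*, with a blocked log2 interaction of -0.47 ± 0.18 (adjusted p = 0.402), and *KLF15*, with 0.68 ± 0.31 (adjusted p = 0.492). The interactions of all 8 members lay between -0.48 and 0.68 without the block. A smaller effect of RGZ in the presence of T0070907 was therefore not shown for any member by this test.

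The share of each gene's variation in log2 CPM over the 12 libraries that lay between conditions, as opposed to between experiments, separated the members. It was 95.2% for *KLF4*, 90.6% for *KLF15*, 77.9% for *CEBPA*, 71.7% for *KLF5* and 64.2% for *CEBPB*. For *CEBPG* 10.7% lay between conditions and 74.2% between experiments, and for *CEBPD* 7.23% and 53.0%. *EBF1*, with few counts, had 29.1% between conditions and 48.9% in neither. *CEBPA*, *CEBPB* and *KLF5* combined both patterns, with 20.0%, 25.0% and 23.9% between experiments. The *CEBPA* and *CEBPB* libraries of experiment 2 were the highest of their condition under vehicle, RGZ and T0070907.

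As a description over the 12 libraries, which share conditions and experiments, *KLF4* and *KLF15* ran opposite to each other (Pearson's r = -0.94, across libraries), as did *KLF5* and *KLF15* (r = -0.93). *CEBPA* and *CEBPB* ran together (r = 0.90). *CEBPG* had r = -0.01 with *KLF4*. Of 13184 genes averaging 1 CPM or more, those most like *KLF4* were *PDK4*, a kinase that inhibits pyruvate dehydrogenase (r = 0.99), *LPCAT3*, a phospholipid remodelling acyltransferase (0.99), and *PLIN2*, a lipid droplet coat protein (0.99). With RGZ their log2 fold changes were 2.72, 0.96 and 2.62 without the block, all called (adjusted p = 0.00461, 0.000269 and 0.000167), and that of *KLF4* lay between them. Most like *KLF15* were *TENT5B*, *SNN* and *DKK3*, a secreted Wnt modulator, with r of 0.97, 0.97 and 0.96. *CEBPA* was closest to the efflux pump gene *ABCG2* (0.97), *TMEM139* (0.97) and the autophagy receptor gene *SQSTM1* (0.96), and *CEBPB* to *IGFBP4* (0.97), *MGAT4B* (0.96) and *PLAAT3* (0.96). For *KLF5* these were *AMIGO2* (0.97), *TRHDE-AS1* (0.97) and *TES* (0.96). The members without a call had weaker neighbours: *CD47*, *LGALS3BP* and *SPATA20* for *CEBPD* (0.86 to 0.88), *MELK*, *ZCCHC8* and *AJUBA* for *CEBPG* (0.88 to 0.89), and *ANKRD45*, *PIANP* and *RND3* for *EBF1* (0.84 to 0.86).

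The wider KLF family showed changes in both directions. Of its other 14 genes 11 were tested, and RGZ changed 5 of them in the fit with the block, 4 up and 1 down, with 9.30% of all tested genes called. Without the block 1 was called, *KLF10*, a factor induced by TGF-β, with a log2 fold change of 0.73 ± 0.10 (adjusted p = 0.00554). *KLF10* averaged 65.4 ± 5.23 CPM with RGZ, 39.5 ± 1.56 with vehicle, 38.4 ± 5.40 with both and 27.0 ± 2.23 with T0070907. The others raised in the blocked fit were *KLF11* (0.49, adjusted p = 0.0109), *KLF13* (0.36, 0.0384) and *KLF6* (0.35, 0.0181). *KLF9*, a factor induced by glucocorticoids, was lower (-0.74, adjusted p = 2.69e-05), like *KLF15*, although its libraries overlapped (21.3 to 52.0 CPM with vehicle, 14.5 to 28.8 with RGZ).

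With T0070907 *KLF10* was lower (-0.55, adjusted p = 0.00265) and *KLF9* higher (0.37, 0.0425) in the blocked fit, 2 of 11 tested against 0.910% of all tested genes. Without the block 0 of the 11 were called, against 0.00740%. The combination differed from RGZ for 3 other KLF genes without the block (*KLF10*, *KLF11* and *KLF13*, all lower) and for 6 with it, against 1.24% and 11.4% of all tested genes, with *KLF3* and *KLF6* also lower and *KLF9* higher. Against T0070907 the combination was higher for *KLF10* with the block (0.51, adjusted p = 0.00255), 1 of 11 tested against 8.76% of all tested genes. Without the block 0 were called, against 0.0370%. None of the 14 tested KLF genes, members included, was called for the combination against vehicle in either fit. The median log2 fold change of the 14 was 0.21 for RGZ, and -0.01 for all tested genes.

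**Figure D4:**
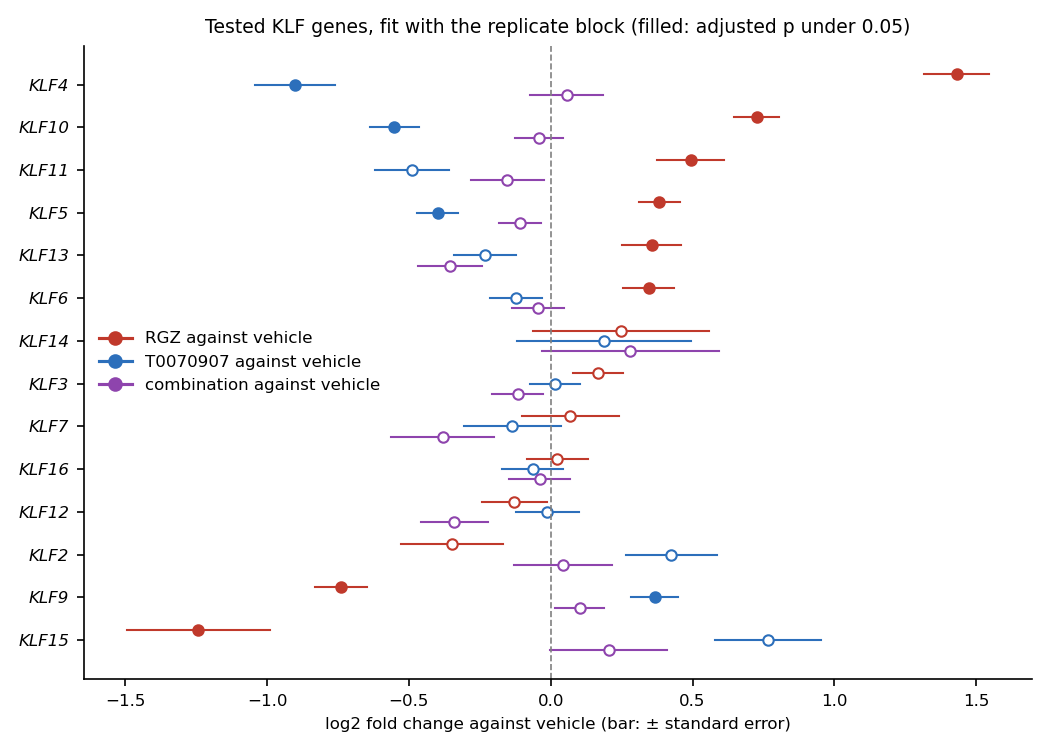
Log2 fold change against vehicle of the 14 tested KLF genes, *KLF4*, *KLF5* and *KLF15* included, for RGZ, T0070907 and the combination, from the fit with the replicate block. Points are estimates with standard errors and filled points have an adjusted p under 0.05. For RGZ and for T0070907 *KLF4* stands at one end and *KLF15* at the other, and for the combination both lie between the extremes.

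Among 12 other C/EBP genes and partners 10 were tested. RGZ changed 0 of them without the block and 4 with it, against 1.24% and 9.30% of all tested genes: *ATF3* (log2 fold change 0.50, blocked adjusted p = 0.0152), *TRIB1*, whose product marks C/EBPα for degradation (0.35, 0.0173), and *NFIL3* (0.42, 0.0139) were higher and *TRIB2* lower (-0.30, 0.00651). The combination differed from RGZ for 0 of them without the block and 5 with it, against 1.24% and 11.4%. *DDIT3* (0.38, blocked adjusted p = 0.0111 and 0.165 without the block), *DBP* (0.85, 0.00939 and 0.0675) and *TRIB2* (0.29, 0.00696 and 0.779) were higher, and *ATF3* (-0.44, 0.0258 and 0.237) and *TRIB1* (-0.45, 0.00271 and 0.270) lower. Against T0070907 the combination lowered *TRIB2* in the blocked fit (-0.21, 0.0434), 1 of 10 tested against 8.76% of all tested genes. Without the block 0 were called, against 0.0370%. The myeloid gene *CEBPE* was at 0 in all libraries. The median log2 fold change for RGZ was 0.12 over this list.

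Of 24 other adipogenic regulators 20 were tested, and RGZ changed 0 without the block and 5 with it, against 1.24% and 9.30% of all tested genes. *NR1H3*, which encodes the oxysterol receptor LXRα, rose from a mean of 26.2 ± 10.6 to one of 53.7 ± 22.7 CPM (log2 fold change 1.03, blocked adjusted p = 1.91e-06). *FOXC2* (0.89, 0.00304), *TLE3*, a corepressor that acts with PPARγ in fat cells (0.53, 0.000236), and *TCF7L2*, a Wnt pathway factor (0.42, 0.000367), were higher and *TWIST1* lower (-0.61, 0.0351). *PPARG* itself averaged 82.2 ± 6.79 CPM with vehicle and 72.1 ± 4.77 with RGZ and was not called (blocked adjusted p = 0.0823). The combination differed from RGZ for 0 of the list without the block (1.24% of all tested genes) and 7 with it (11.4%), 3 higher and 4 lower. *PPARG* (0.20, blocked adjusted p = 0.0483), *SREBF1* (0.37, 0.000836) and *TWIST1* (0.77, 0.00664) were higher. *NR1H3* (-0.81, 2.31e-05), *TLE3* (-0.49, 0.000438), *TCF7L2* (-0.46, 0.000154) and *FOXC2* (-1.06, 0.000757) were lower. In the blocked fit *NR1H3* was also lower with T0070907 than with vehicle (-0.63, 0.00913) and higher with the combination than with T0070907 (0.85, 0.000230). The median log2 fold change of the list for RGZ was -0.10.

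Among 19 genes of the fat cell 10 were tested, and RGZ raised 3 without the block (*FABP4*, *CD36* and *AGPAT2*) and also *LPL* with it, against 1.24% and 9.30% of all tested genes. *CD36* had 28 to 43 counts with RGZ and at most 3 in the other conditions, and *FABP4* 1648 to 3513 with RGZ and at most 25. These 2 genes passed the filter on low counts mainly through the RGZ libraries, which favoured their calls in comparisons with RGZ. The combination was below RGZ for 2 without the block (*FABP4* and *CD36*) and for 4 with it (also *LPL* and *AGPAT2*), against 1.24% and 11.4%. It was above T0070907 for 0 without and 2 with the block (*FABP4* and *AGPAT2*), against 0.0370% and 8.76%. *ADIPOQ* and *CIDEA* were at 0 in all libraries, and *LEP*, *RETN*, *PCK1* and *UCP1* had at most 1 count in any library. Also not tested were *PLIN1* and *SLC2A4*, with at most 3 counts, and *CIDEC*, with at most 31. The late factors *CEBPA* and *KLF15* were measured in cells in which 6 of the 19 fat cell genes stayed under the detection floor in all 12 libraries. The summed level of the list was 402 to 669 CPM with RGZ, 202 to 219 with both, 187 to 203 with vehicle and 174 to 193 with T0070907. *FABP4*, a fatty acid binding protein gene, made up most of the difference: it had 1 count in each vehicle library and 167 to 401 CPM with RGZ. Without it the RGZ sum was 227 to 268 CPM and the vehicle sum 187 to 203 CPM, still without overlap.

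Immediate early genes respond to growth factors and stress. All 14 of the list were tested, and RGZ changed 2 without the block (*FOSL1* and *MYC*, both higher), with 1.24% of all tested genes called. With the block 6 were called, against 9.30%: *JUN*, *DUSP1* and *DUSP5* were higher in addition and *DUSP6* lower, and 8 did not pass. The largest was *JUN* (log2 fold change 1.00, blocked adjusted p = 1.96e-05), which with *MYC* (0.81, 2.73e-05) was lower in the combination than with RGZ in both fits. In the blocked fit *FOSL1*, *DUSP1* and *DUSP5* were also lower and *IER3* higher. The summed level of the list was 1037 to 1142 CPM with vehicle and 1254 to 1365 with RGZ, without overlap, and 1011 to 1064 with T0070907 and 993 to 1230 with both. Its part in the changes of the members was not tested.

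Markers of the melanocyte lineage and of other cell types gave 0 calls without the block in any of the 6 contrasts, and the calls below are from the blocked fit alone. For RGZ it called 2 of 5 tested melanocyte, 1 of 3 keratinocyte and 1 of 4 fibroblast markers, against 9.30% of all tested genes. Of 9 melanocyte markers 5 were tested, and *S100B* (log2 fold change -1.02, adjusted p = 3.73e-05) and *MITF* (-0.34, 0.00997) were lower with RGZ. *S100B* was higher with T0070907 (0.59, 0.0119), and *S100B*, *MITF* and *S100A1* were higher with the combination than with RGZ. Of 5 keratinocyte markers 3 were tested, and *KRT14* was lower with RGZ (-0.94, 0.000182) and higher with the combination than with RGZ (1.10, 3.20e-05), while *KRT1* was at 0 and *DSG3* at 1 count at most. Summed levels of the melanocyte list overlapped between vehicle (291 to 532 CPM) and RGZ (239 to 458), as did those of the keratinocyte list (87.9 to 114 and 85.9 to 99.1). Of 5 fibroblast markers 4 were tested, with *COL1A1* lower with RGZ (-0.76, 0.000672) and lower with the combination than with T0070907 (-0.55, 0.0125), and summed levels of 15.1 to 35.2 and 11.4 to 22.1 CPM. The 4 leukocyte markers summed to at most 1.39 CPM in any library and the 3 endothelial markers to at most 2.50 CPM. Only 1 leukocyte and 1 endothelial marker were tested, and 0 of these were called with RGZ. The part of these genes in the changes of the members was not tested, and a smaller share of cells of a type cannot be told apart from less RNA per cell in such bulk libraries.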

How the data were processed

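RNA-seq libraries (TruSeq, Illumina) were prepared from A375 cells in 4 conditions and 3 experiments. The authors deposited raw read counts per NCBI gene number with no normalization. Their processing notes name the build hg19, while the aligner, counting tool, annotation and strand setting were not given in the sources used here. Of 23705 genes 23538 received a symbol, and the table held 0 columns of other samples. Positions are from GENCODE 29 (GRCh38), since the count table carries none, and promoters from RefSeq (GRCh38.p14). Total counts per library, 8319455 to 11375227, limit precision for genes with few counts, and the floor of 3 counts covers counting error only.

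Counts were filtered with filterByExpr, scaled by TMM and tested with edgeR 4.0.16 (R 4.3.3), using quasi-likelihood F tests on all 4 groups and Benjamini-Hochberg adjustment over all 13522 tested genes. Standard errors were taken as the absolute log2 fold change divided by the square root of F, and intervals (95%) from these with t quantiles, so both are approximate. The series' design text gives 3 independent experiments with RNA pooled per condition in each, while the sample titles carry 1 shared experiment code and number the libraries 1 to 3. That this number is the experiment is a reading on which every blocked result rests, and it was checked on the data. Deviations from the group means correlated in the 18 pairs of libraries with the same number, with a mean of 0.554 (lowest 0.0793, 1 pair under 0.1, highest 0.758). In addition 12 of 12 libraries correlated best with their own number. Subtracting group means sets libraries of the same condition against each other, which favours that count in advance, so it is not a separate check. The common dispersion was 0.0193 without and 0.00333 with the replicate block. With 3 against 3 libraries the smallest exact permutation p for a single gene is 0.1, two-sided, and no such test is reported. Correlations used log2 CPM with a prior count of 2.

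Alternatives were DESeq2 1.42.0, limma 3.58.1 (voom), DESeq2's size factors, other count filters, only the compared groups, a threshold of 0.01 and leaving out each library. The GC correction (span 0.3) and the alternatives joined with the block, other than the block itself, were chosen after seeing the data. The scripts were tested on simulated data. All 8 genes are named, with the 3 most correlated genes for each, and genes of the related lists where called. The members and the related lists were chosen with earlier results of these data known. Protein sequences were not analysed here.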

Additional observations from a re-analysis of the deposited data

How the results depend on the processing

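With the replicate block the number of members called was 5 for RGZ against vehicle, 2 for T0070907 against vehicle, 5 for the combination against RGZ and 4 for the combination against T0070907, and the block changed no call for the combination against vehicle or the interaction. For RGZ against vehicle and for the combination against RGZ, limma-voom, a fit of only the compared groups and a threshold of 0.01 each called 1 member, *KLF4*. Over all genes they called 153, 69 and 48 for RGZ against vehicle and 166, 41 and 41 for the combination against RGZ. DESeq2 called 1 member for T0070907 against vehicle, among 21 genes in all. With the block, a fit of only the compared groups called 4 members for T0070907 (*KLF4*, *KLF5*, *KLF15* and *CEBPB*) among 416 genes in all. A threshold of 0.01 left 1 for the combination against T0070907 among 196.

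Leaving out 1 library at a time gave 1 to 2 members for RGZ against vehicle, 1 to 2 for the combination against RGZ, 0 to 1 for T0070907 against vehicle, 0 to 1 for the combination against T0070907, and 0 for the combination against vehicle and the interaction. Over all genes these unblocked fits called, in the same order, 45 to 168, 53 to 148, 0 to 5, 0 to 14, 0 and 0 to 1. With the block the members called were 4 to 5, 4 to 5, 0 to 3, 1 to 4, 0 to 1 and 0. Counts over all genes moved in the same blocked fits, from 717 to 2044 for RGZ against vehicle, 856 to 2575 for the combination against RGZ, 30 to 329 for T0070907 against vehicle, 106 to 3342 for the combination against T0070907, 0 to 2594 for the combination against vehicle and 1 to 149 for the interaction. The log2 fold change changed sign in some of these fits. It ranged from -0.24 to 0.55 for *CEBPD* with RGZ (-0.0780 to 0.38 with the block) and from -0.19 to 0.0212 for *CEBPG* with RGZ. For the combination against vehicle it ranged from -0.10 to 0.26 for *KLF4* (-0.0876 to 0.23 with the block) and from -0.11 to 0.39 for *CEBPA*. With the block it ranged from -0.00529 to 0.26 for *CEBPB* and from -0.0238 to 0.41 for *KLF15*. The cause was not tested.

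Over all comparisons 324 alternative values belonged to called results. Of these 0 had the other sign and 47 were no longer called. Of 1366 values of results not called, 73 had the other sign and 22 were called. *CEBPA* and *EBF1* have no value under the filter of 10 counts in every library, *EBF1* also none in fits of only the compared groups, and the interaction has no fit of only the compared groups. *EBF1* had 3 to 20 counts per library, so its lowest libraries lay at the detection floor.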

Other observations

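*CEBPA-DT*, a long non-coding RNA gene that starts next to *CEBPA* on the opposite strand, had few counts in every library. In experiments 1 to 3 its counts were 3, 6 and 1 under vehicle and 11, 6 and 5 under RGZ. Under T0070907 they were 2, 3 and 7, and under the combination 8, 8 and 6. These ranges overlapped, and 2 vehicle and 2 T0070907 libraries were at or under the detection floor of 3 counts.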
